A study of Mus musculus and Homo sapiens with 4 samples.

Results

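TXNIP, the arrestin-domain genes ARRDC1 to ARRDC4, the thioredoxin genes TXN and TXN2, the mitochondrial thioredoxin reductase gene TXNRD2 and the transcription factor gene MLX were followed in a mouse and a human cancer line in which Merm1 was knocked down. These 9 genes were chosen from the knock-down differences of the same arrays, so their differences are described here with no test and support nothing beyond themselves. All probe sets annotated with one of these symbols alone were taken, which gave 18 of 45101 probe sets and 8 genes on the mouse array and 20 of 54675 probe sets and 9 genes on the human array. The mouse array names its TXN counterpart Txn1, which the symbol rule did not take, and its values are given beside the 8 mouse members.

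The study hybridised RNA of 4 stably infected lines to Affymetrix 3' arrays, with 1 array a line. LM8 derives from a mouse osteosarcoma and A375M from a human melanoma. The control group of each line carried the retroviral vector pSIREN-RetroQ-control. The knock-down group of LM8 carried pSIREN-RetroQ with a hairpin against mouse Merm1/Wbscr22, and that of A375M one with a hairpin against human Merm1/Wbscr22, the gene now named Bud23 or BUD23. All 4 lines were grown in serum-containing medium, MEM for LM8 and DMEM for A375M. Whether a line is 1 clone or a pool of infected cells is not stated in the labels.

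TXNIP binds and inhibits reduced thioredoxin, lowers glucose uptake, and belongs to the alpha-arrestin family together with the ARRDC proteins, which carry arrestin folds and recruit NEDD4-family ubiquitin ligases to membrane proteins. Thioredoxins reduce disulfides in other proteins and are themselves reduced by thioredoxin reductases at the expense of NADPH. TXNIP and ARRDC4 are established targets of the glucose-sensing MondoA and ChREBP factors, which bind DNA as dimers with MLX at paired E-boxes called carbohydrate response elements.

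The values are log2 RMA expression values, and each difference is knock-down minus control within a line. Each group has a single array, so precision is limited by their number and no difference carries a replicate check, a standard error or a p-value. Fewer cells that express a gene and less of its RNA per cell cannot be told apart in such bulk RNA. Of the probe sets of a gene the one with the highest mean stood for it, and the gene was kept where that probe set exceeded the array median in at least 1 array. All 8 mouse and all 9 human members were kept, as was Txn1. As a technical gauge, kept probe sets of the same gene differed from each other with a median SD of 0.12 (LM8) and 0.071 (A375M), a value that holds no spread between cultures. Identical values in both arrays were held by 45.4% of all human probe sets against 0.705% of mouse ones. Kept probe sets with identical values entered the gauge, so the gauges of the lines are not alike. How far they lower that of A375M was not tested. The target gene read 10.61 in control cells and 8.48 in knock-down cells of LM8, and 10.70 and 8.38 in A375M. Spike-in transcripts added before labelling differed by a median of 0.11 (LM8) and 0 (A375M). The hybridisation spike-ins differed by a median of 0.041 (LM8) and 0.080 (A375M), the latter above the A375M gauge. Of 8 listed osteoblast markers 4 were measured in LM8 and 4 of 4 exceeded the array median in both arrays, as did 3 of 6 measured in A375M. Of 8 melanocyte markers 7 of 7 measured did so in A375M and 3 of 8 in LM8. Of 4 measured leukocyte markers 1 did so in LM8 and 2 in A375M, and of 4 endothelial markers 1 and 2.

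The promoters of Txnip and Arrdc4, the mouse members at least 1.5-fold higher in LM8, are shown first, because the letters bear on the sites named above. RefSeq windows of build GRCm38.p6, running from 250 bases before to 50 bases after a gene start, were searched on both strands. All 8 mouse members and Txn1 matched, with 11 windows between them since Arrdc3 has 3 listed starts. The carbohydrate response element was searched as CACGNG, a spacer of 5 bases and CNCGNG, the E-box as CACGTG, the relaxed E-box as CACGNG, and further motifs as CCAAT, the forkhead motif GTAAACA and TATAAA. The relaxed E-box includes the E-box and matches the first part of the carbohydrate response element. Not every second part, CNCGNG, is also a relaxed E-box, but that of Txnip is. The bases before the start of Txnip, chr3:96557707-96557956 on the plus strand, and of Arrdc4, chr7:68749239-68749488 on the minus strand, are written 5′ to 3′ along the gene. Capitals in Txnip mark, in order, a CCAAT match on the opposite strand, the forkhead match, a CCAAT match and the carbohydrate response element. Capitals in Arrdc4 mark the E-box and 6 CCAAT matches on either strand.
Txnip: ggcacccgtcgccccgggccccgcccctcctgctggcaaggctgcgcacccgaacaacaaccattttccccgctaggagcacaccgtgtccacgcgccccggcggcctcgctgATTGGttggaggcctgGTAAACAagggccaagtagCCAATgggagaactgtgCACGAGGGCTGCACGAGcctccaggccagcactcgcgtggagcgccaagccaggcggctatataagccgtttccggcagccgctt
Arrdc4: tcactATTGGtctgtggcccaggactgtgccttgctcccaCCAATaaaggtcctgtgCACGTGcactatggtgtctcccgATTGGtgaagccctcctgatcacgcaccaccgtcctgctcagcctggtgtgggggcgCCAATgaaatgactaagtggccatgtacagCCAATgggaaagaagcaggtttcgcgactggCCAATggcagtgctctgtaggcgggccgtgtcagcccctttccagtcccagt

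In Txnip the carbohydrate response element began 85 bases before the start, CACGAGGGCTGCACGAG, and such an element stood in 0.365% of the 32851 windows (120 windows). The forkhead match began 121 bases before the start, a motif held by 3.65% of windows. The CCAAT matches began 137 and 102 bases before it, and 37.4% of windows hold that motif. Arrdc4 had no match to the carbohydrate response element as written, but held an E-box beginning 193 bases before its start, as 7.15% of windows do, and 6 CCAAT matches. Mlx held an E-box beginning 40 bases before its start and 2 CCAAT matches. The relaxed E-box, held by 27.5% of windows, had 4 matches in Txnip, 2 in Arrdc4 and 2 in Mlx. Those of Arrdc4 and Mlx are their E-box read on both strands. The Txnip matches beginning 85 and 74 bases before the start lie within its carbohydrate response element. Of the members that were not higher by the representative probe set, Arrdc2 held 3 CCAAT matches and 1 relaxed E-box. Arrdc1 held 2 relaxed E-boxes and Txn2 held 1 CCAAT match. The 3 Arrdc3 windows held no E-box, relaxed E-box or forkhead match, and 2 of them, which overlap, a CCAAT match. Txnrd2 held none of the motifs, and Txn1 only TATAAA, present in 13.6% of windows. These matches describe letters in a window and say nothing of binding. Human promoter sequence was not analysed here.

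**Figure D1:**
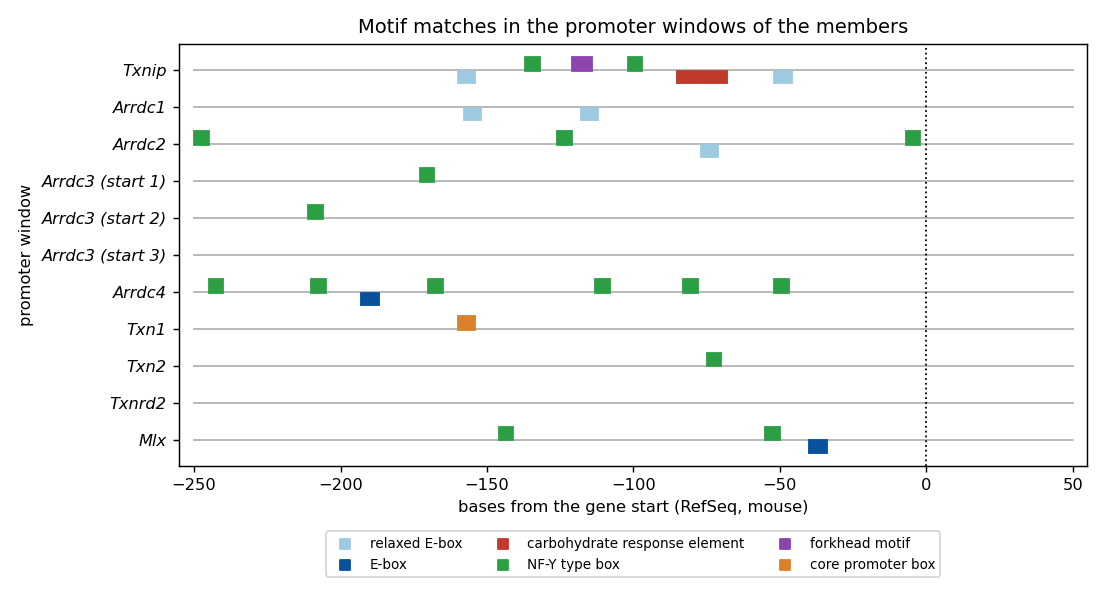
Motif matches in the mouse promoter windows of the members and Txn1, plotted as bases from the gene start, with 1 line per window; the green NF-Y type box is the CCAAT motif and the orange core promoter box is TATAAA. The single carbohydrate response element, in red, lies in Txnip, and the E-boxes, in dark blue, lie in Arrdc4 and Mlx.

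By the probe set that represents each gene, Txnip had the highest difference of the mouse members, whereas Arrdc4 was higher by the mean of its probe sets (1.00 against 0.95). Its brighter probe set read 7.47 in control cells and 8.66 in knock-down cells of LM8, a difference of 1.19 or 2.28-fold higher. Its dimmer probe set read 5.36 and 6.08, a difference of 0.72 or 1.64-fold higher. Both probe sets were therefore higher in the knock-down array, the dimmer one starting near the array median of 5.29. By the brighter probe set Txnip ranked 9 from the top among 11646 kept genes.

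Arrdc4, the family member closest to Txnip in its known glucose response, was also higher in LM8 on both probe sets. The brighter probe set read 8.06 in control cells and 8.74 in knock-down cells, a difference of 0.68 or 1.61-fold. The other read 6.67 and 7.98, a difference of 1.31 or 2.48-fold, and ranked 13 from the top among 45037 non-control probe sets. The size for Arrdc4 thus depended on the probe set, while its direction did not. Arrdc3, which encodes an adaptor in the trafficking of beta-adrenergic receptors, read 7.24 and 7.62 on its single probe set, a difference of 0.38 or 1.30-fold higher, and ranked 451 among the kept genes.

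Txnip and Arrdc4 were the 2 members at least 1.5-fold higher in LM8, where 1.16% of 11646 kept genes were. Txnip alone was at least 2-fold higher by the probe set that represents the gene, as 0.155% of kept genes were. No member was at least 1.5-fold lower in LM8, where 1.31% of kept genes were. Since the members were chosen with these differences known, nothing is read from these shares. The median over the 8 members was -0.060, with 3 higher and 5 lower, beside 0.015 over all kept genes, of which 53.8% were higher.

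The other arrestin-domain genes did not follow them. Arrdc2, an adaptor of the same family, read 6.12 in control cells and 5.72 in knock-down cells of LM8, a difference of -0.40 or 1.32-fold lower. Arrdc1, whose product takes part in the budding of vesicles from the plasma membrane, gave probe sets of both signs. Its brightest probe set read 7.91 and 7.59, a difference of -0.33, the next 7.00 and 6.97, a difference of -0.026, and the dimmest 6.02 and 6.39, a difference of 0.37. The mean of the 3 Arrdc1 probe sets differed by 0.0056, so Arrdc1 had no settled direction in LM8. The single probe sets of Txnip and these genes in LM8 covered both signs, from -0.40 for Arrdc2 to 1.31 for the dimmer one of Arrdc4.

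**Figure D2:**
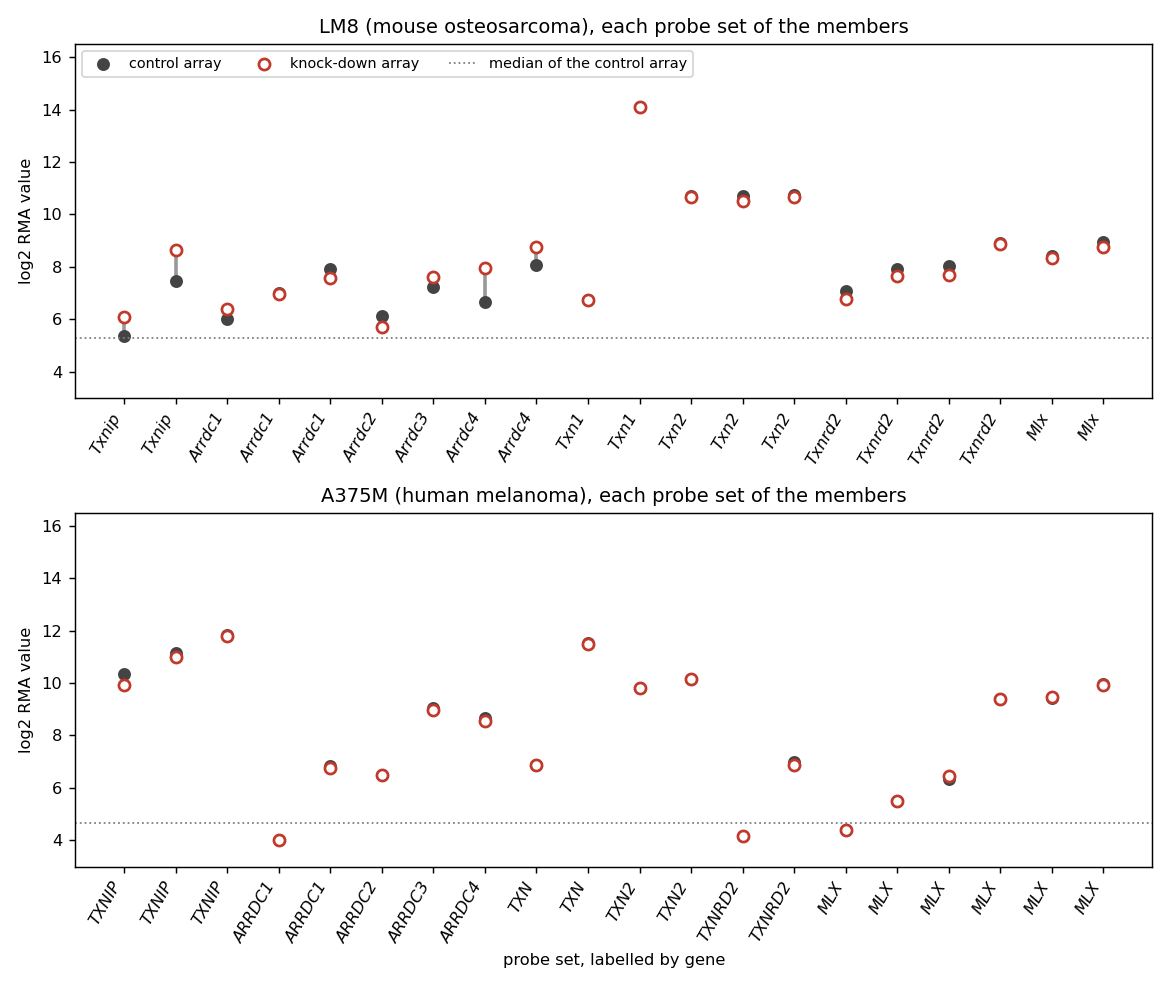
The log2 RMA value of each member probe set, and of the mouse Txn1 probe sets, in the control array (filled) and the knock-down array (open) of LM8 (above) and A375M (below), 1 array each, so there are no error bars. The Txnip and Arrdc4 pairs stand apart by 0.68 to 1.31 in LM8, while in A375M the widest gap, 0.42, belongs to the dimmest TXNIP probe set.

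The thioredoxin genes themselves differed little. Txn1, the cytosolic thioredoxin that TXNIP binds, read 14.08 in both LM8 arrays on its bright probe set, a difference of 0.0013. Its dim probe set read 6.73 and 6.74. Txn2, the mitochondrial thioredoxin, gave differences of -0.18, -0.090 and -0.023 on its 3 mouse probe sets, which read between 10.52 and 10.75. Those of the first were 10.70 in control cells and 10.52 in knock-down cells. Neither thioredoxin gene therefore came near a 1.5-fold difference in LM8.

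Txnrd2, the reductase that serves the mitochondrial thioredoxin, was lower on all 4 mouse probe sets. The brightest read 8.90 in control cells and 8.87 in knock-down cells, a difference of -0.031. The other three differed by more, namely from 8.04 to 7.70 (-0.34), from 7.07 to 6.78 (-0.30) and from 7.90 to 7.64 (-0.27). The representative probe set was thus the one with the smallest difference, and the mean over the 4 was -0.23. Mlx, the dimer partner of the Mondo factors, read 8.94 and 8.76 on its brighter probe set, a difference of -0.18, and 8.41 and 8.34 on the other, a difference of -0.063.

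In A375M most of the representative values were slightly lower in the knock-down array. By these probe sets TXNIP, ARRDC1 to ARRDC4, TXN2 and MLX differed by less than in LM8. TXN, set beside mouse Txn1, and TXNRD2 differed by more. For TXN and TXN2 the differences of both lines were below the technical gauge, so nothing is read from their order. The orders were not tested. By the mean of probe sets TXNRD2 differed by less in A375M (-0.068) than in LM8 (-0.23). ARRDC1 then differed by more in A375M (-0.024) than in LM8 (0.0056). TXNIP had 3 probe sets, all bright and all lower. They read 11.84 in control cells and 11.81 in knock-down cells (-0.036), 11.13 and 10.98 (-0.15), and 10.34 and 9.92 (-0.42, or 1.34-fold lower). The dimmest of the 3 thus carried the widest difference, and the mean over the 3 was -0.20. All 3 names end in _s_at, which marks probes that can match several transcripts.

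ARRDC4 read 8.65 in control cells and 8.56 in knock-down cells of A375M, a difference of -0.097. ARRDC3 read 9.03 and 8.98, a difference of -0.047 that turned to 0.0068 after repeated quantile normalization. ARRDC1 read 6.82 and 6.77, a difference of -0.048, and its dim probe set and ARRDC2 held identical values in both arrays, 4.03 and 6.47. ARRDC4 was the widest of these, and came to -0.13 after centring on the array medians.

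TXN read 11.53 in control cells and 11.49 in knock-down cells of A375M on its bright probe set, a difference of -0.035, and 6.87 in both on the other. TXN2 differed by -0.013 and -0.0088 on its probe sets, which read 10.15 and 9.80 in the control array, and the sign of the gene turned after repeated quantile normalization (0.027) and after removal of a loess curve (0.0017). TXNRD2 read 7.00 and 6.86, a difference of -0.14, with an identical dim probe set at 4.17. The 6 MLX probe sets ranged from -0.013 to 0.13, and 3 of them were identical in both arrays. The brightest, at 9.95 and 9.94, carried the -0.013, which turned to 0.021 after repeated quantile normalization and 0.0011 after removal of a loess curve, and the mean over the 6 was 0.031.

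No member was at least 1.5-fold higher in A375M, where 0.378% of 13244 kept genes were, and none was at least 1.5-fold lower, where 0.37% were. By the representative probe sets 8 of the 9 members were lower and 1 was identical, although 5 were lower and 4 higher after repeated quantile normalization, and 6 lower and 3 higher after the loess curve was removed. The members had a median of -0.036 beside 0 over all kept genes, of which 40.3% were lower, 29.0% higher and 30.8% identical. In all, 7 of the 20 human member probe sets (35%) and 0 of the 18 mouse ones held the same value in both arrays. Of these 7, the control value of 6 recurred in 36 to 435 other probe sets of the same array, and only that of the MLX probe set at 9.40 did not recur. The part of these recurring values in the small A375M differences was not tested.

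**Figure D3:**
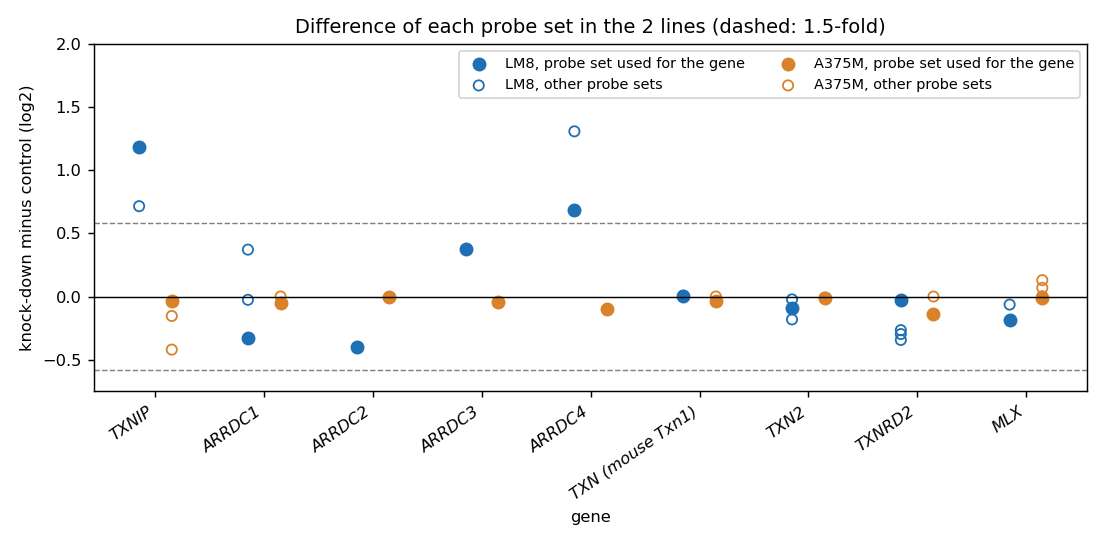
The log2 difference, knock-down minus control, of each probe set, LM8 in blue and A375M in orange, with filled points for the probe set that represents the gene and dashed lines at 1.5-fold. Txnip and Arrdc4 lie above the upper line on all 4 of their LM8 probe sets, and no A375M point reaches a dashed line.

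Set side by side, TXNIP, ARRDC3 and ARRDC4 were higher in LM8 and lower in A375M on every kept probe set (a single one per line for ARRDC3). By the representative probe sets their differences were 1.19, 0.38 and 0.68 in LM8 and -0.036, -0.047 and -0.097 in A375M. The other TXNIP probe sets differed by -0.15 and -0.42 in A375M. ARRDC3 came to 0.0068 in A375M after repeated quantile normalization. The difference between the lines was not tested, since each group held 1 array, and levels were not compared between the mouse and human designs. Of the 8 members kept in both lines 4 had the same sign in both, 3 had opposite signs and 1 was identical in a line. This split came to 3 and 5 after repeated quantile normalization, 2 and 6 after the loess step and 2 and 5 by the mean of probe sets. Over all 8981 genes kept in both lines and matched by symbol, 35.6% had the same sign and 36.1% opposite signs, and of the 85 at least 1.5-fold higher in LM8, 27.1% and 42.4%. The share with the same sign over all genes was 49.0% after quantile normalization and 50.5% after the loess step. By the representative probe sets, 7 of the 9 members in A375M differed by less than the technical gauge, against 2 of 8 in LM8. So did 58.9% and 52.3% of all kept genes. The gauges are not alike, since identical values, far more frequent in A375M, entered them.

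**Figure D4:**
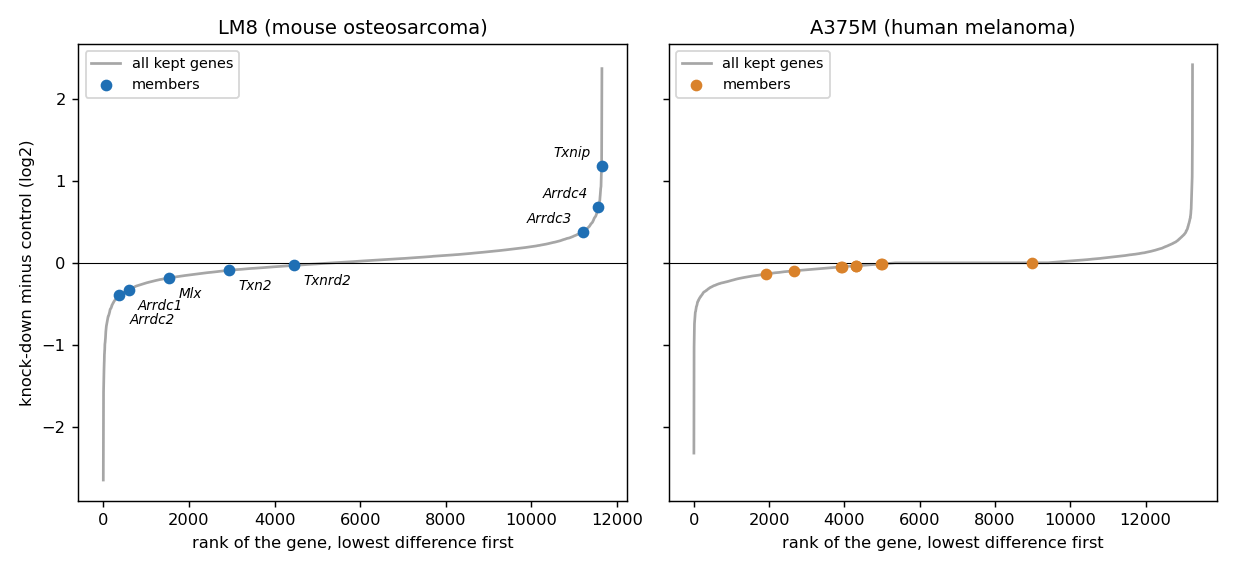
All kept genes of LM8 (left, 11646) and A375M (right, 13244) ranked by their log2 difference, with the members as points. In LM8 Txnip, Arrdc4 and Arrdc3 lie on the right end and Arrdc2 and Arrdc1 towards the left end, whereas the A375M members lie between -0.14 and 0.

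By the pair of differences in both lines, the genes most like TXNIP among those 8981 were CRYBG1, RET and FBLN1, with Euclidean distances of 0.030, 0.10 and 0.11 on the log2 scale over 2 differences from 4 arrays. Crybg1 read 5.08 in control cells and 6.25 in knock-down cells of LM8, so it was kept in LM8 through the knock-down array alone, and CRYBG1 read 8.76 and 8.70 in A375M. Ret, a receptor tyrosine kinase gene, read 7.35 and 8.44 in LM8, and RET 4.89 in both A375M arrays. Fbln1, which encodes the matrix protein fibulin-1, read 6.83 and 7.92 in LM8, and FBLN1 5.90 in both A375M arrays. The identical A375M values of RET and FBLN1 recurred in 64 and 20 other probe sets. ARRDC4 was the nearest of the members, with a distance of 0.51 and rank 46, and ARRDC3 ranked 271.

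**Figure D5:**
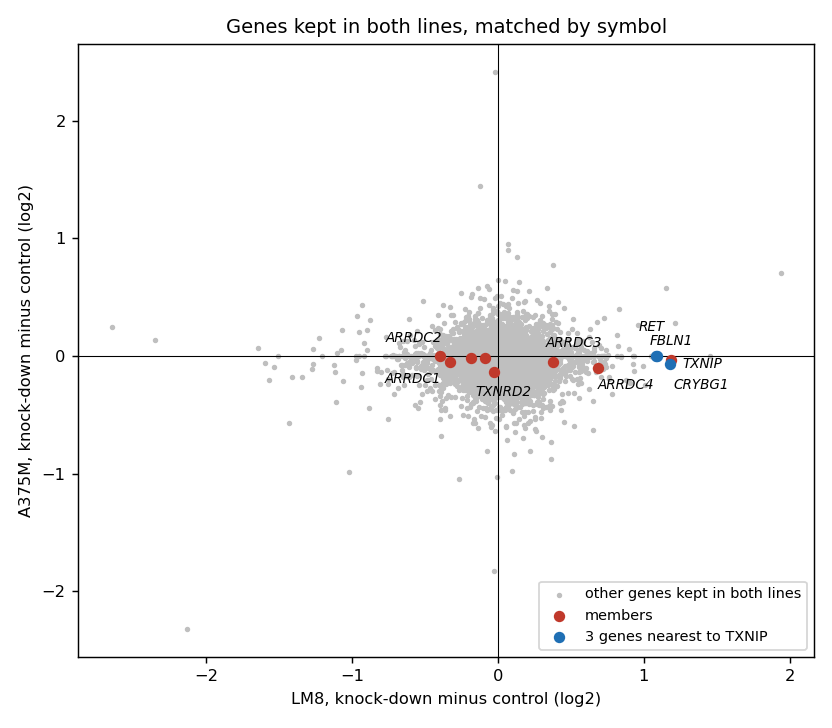
Knock-down minus control in LM8 (horizontal) and A375M (vertical), both on the log2 scale, for the 8981 genes kept in both lines. TXNIP and the 3 genes nearest to it lie at 1.09 to 1.19 in LM8 and between -0.064 and 0 in A375M.

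The listed Mondo partners and glucose-responsive genes went in both directions. Of the 13 kept genes of this list, 9 were higher and 4 lower in LM8, with a median of 0.054. Mlxip, which encodes MondoA, read 7.93 in control cells and 8.35 in knock-down cells, a difference of 0.42. Klf10, a zinc finger gene that responds to glucose in liver, differed by 0.56. Rgs16, a regulator of G-protein signalling that ChREBP induces in some tissues, differed by -1.10, from 10.29 to 9.19, and was the only member of that list past 1.5-fold in LM8. In A375M, 3 of 12 were higher, 4 lower and 5 identical, with a median of 0, none was past 1.5-fold, and the widest differences were those of MYC (0.12), MXD1 (-0.11) and MXD3 (0.11).

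In the list of glucose uptake, phosphorylation and related genes, 9 of 9 kept genes were lower in LM8, also after each rescaling of the same arrays. Their median was -0.15 beside 0.015 over all kept genes, of which 46.0% were lower. The differences ran from -0.60 to -0.045. Those of -0.098, -0.082, -0.055 and -0.045 were smaller in size than the technical gauge of 0.12. The widest differences were those of 3 of the 4 glucose transporter genes, while the other, Slc2a8, differed by -0.055. Slc2a3 read 11.70 in control cells and 11.10 in knock-down cells, a difference of -0.60 or 1.52-fold lower, Slc2a1 differed by -0.26 and Slc2a4 by -0.21. Only Slc2a3 was past 1.5-fold. In A375M, 2 of 8 were higher, 5 lower and 1 identical, with a median of -0.021, and the widest were SLC2A3 (0.18), SLC2A1 (-0.096) and G6PC3 (0.054). There the split turned to 5 higher, 2 lower and 1 identical after repeated quantile normalization.

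The kept mouse genes were also described by the motifs in their promoter windows. Of 9454 kept LM8 genes with a promoter window, 106 (1.12%) were at least 1.5-fold higher and 116 (1.23%) lower, with a median of 0.018. Among them, 80 had a window with a carbohydrate response element as searched, and their median was 0.028. Of these 80, 1 (1.25%) was at least 1.5-fold higher, Txnip itself, and 1 (1.25%) was lower. Whether these matches act on the genes was not tested. After Txnip the highest were Prune2 (0.45), Kcnab2 (0.37) and Tmem268 (0.34), and the lowest was Sertad4 (-0.83), genes named after their values were seen. Of the 276 with a forkhead match, 3 (1.09%) were at least 1.5-fold higher and 4 (1.45%) lower, with a median of 0.015.

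Across the rest of the thioredoxin system, 12 of 16 kept genes were higher and 4 lower in LM8, with a median of 0.081. The sestrin genes, whose products are stress-induced regulators of growth signalling, differed in opposite directions. Sesn2 read 9.30 and 8.71, a difference of -0.59 or 1.51-fold lower and the only one past 1.5-fold, which it missed after centring on the array medians and with 32 added to the linear values, while Sesn1 read 10.04 and 10.58, a difference of 0.54. Msrb3, a methionine sulfoxide reductase gene, differed by 0.43. In A375M, 8 of 19 were higher, 7 lower and 4 identical, with a median of 0. SELENOS (-0.17), SESN2 (-0.16) and TXNRD1 (-0.13), the cytosolic thioredoxin reductase gene, had the widest differences there. After repeated quantile normalization 13 of the 19 were higher and 6 lower, and after centring 6 were higher and 13 lower.

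Proteins with a thioredoxin fold gave 12 higher and 10 lower of 22 kept genes in LM8 (median 0.011), with the glutaredoxin genes Glrx3 at -0.33 and Glrx at 0.32 and the thioredoxin-like gene Txnl1 at -0.29. In A375M 5 of 21 were higher, 7 lower and 9 identical (median 0), with TXNDC12 at 0.30, TXNDC15 at -0.13 and GLRX2 at -0.12, and with 16 higher after repeated quantile normalization and 16 lower after centring. None of these genes was past 1.5-fold in either line.

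Other arrestin relatives gave 2 higher and 5 lower of 7 kept genes in LM8 (median -0.052). Arr3, the cone arrestin gene, was at -0.32, the retromer-related gene Vps26c at -0.19 and the beta-arrestin gene Arrb2 at -0.15. In A375M 1 of 6 was higher, 2 were lower and 3 identical, with ARR3 at -0.13, ARRB1 at 0.11 and VPS26C at -0.091. The NEDD4-family ligases and their adaptors, which arrestin-domain proteins recruit, gave 4 higher and 4 lower of 8 in LM8 (median 0.00094), led by Smurf2 (0.18), Ndfip2 (-0.15) and Itch (0.13). In A375M they gave 2 higher, 6 lower and 3 identical of 11 (median -0.046), led by HECW2 (0.24), NEDD4 (-0.19) and SMURF1 (-0.18).

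Genes of proteins reported to bind TXNIP gave 3 higher and 2 lower of 5 kept genes in LM8 (median 0.015). Ddit4, which encodes the mTORC1 inhibitor REDD1, was at -0.34, the insulin receptor gene Insr at -0.16 and Zbtb32 at 0.052. In A375M 1 of 4 was higher, 2 were lower and 1 identical (median -0.030), with INSR at -0.14, DDIT4 at -0.059 and KPNA2 at 0.0096. No gene of the arrestin, ligase or binding-partner lists was past 1.5-fold in either line. In A375M some of the list splits turned with the scaling. After repeated quantile normalization 8 Mondo and glucose-response genes were higher and 4 lower, against 2 and 10 after centring, and the arrestin relatives went from 4 higher and 2 lower to 1 and 5. The ligases kept more lower than higher genes under each scaling, and the binding partners gave 2 and 2 after quantile normalization and 0 and 4 after centring.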

How the data were processed

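Biotin-labelled cRNA from total RNA of 4 stably infected lines was put on Affymetrix 3' arrays, as the labels' protocols state, and sample titles gave the groups, of 1 array each. The authors deposited log2 values for each probe set, computed with RMA of unstated version (per the submitters' processing notes). RMA corrects background, gives the probes of arrays the same distribution and combines them, which hides any global shift of expression. The deposited probe set values were not exactly alike in distribution. Their medians in the control and knock-down arrays were 5.29 and 5.28 (LM8) and 4.64 and 4.67 (A375M). The step that made the identical and recurring human values is not known.

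The supplied platform annotation gave 1 symbol to 34945 of 45037 mouse and 41091 of 54613 human non-control probe sets, several to 932 and 1801, and none to 9160 and 11721. A gene was kept if its probe set with the highest mean lay above the 50th percentile in either array of its line, which left 11646 of 18193 mouse and 13244 of 19773 human genes. Differences were counted at 1.5-fold, and no test was run. Text names all members, the genes of each list past 1.5-fold and otherwise the 3 with the widest differences, and the 3 genes nearest to TXNIP. The members, the 7 lists and the motifs were chosen with earlier results of these data known. Some list genes, TXNRD3 and ARRDC5 in human among them, were not analysed here. Promoters came from RefSeq (GRCm38.p6). The counting was checked on simulated data. Python 3.11.15, numpy 2.4.6, pandas 2.3.3 and statsmodels 0.14.6 were used. The 9 alternatives were a 2-fold threshold, no filter, a 70th percentile filter, centring on array medians, quantile normalization run again, a loess curve (span 0.4) subtracted, averaging all probe sets of a gene, leaving out probe sets ending in _x_at or _s_at, and 32 added to the linear value.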

Additional observations from a re-analysis of the deposited data

Results flagged for a closer look

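Every kept probe set of TXNIP and ARRDC4, and the single one of ARRDC3, was higher in the knock-down array of LM8 and lower in that of A375M. Opposite signs were held by 37.5% of the members, 36.1% of all genes kept in both lines and 42.4% of those at least 1.5-fold higher in LM8. The gene differences were 1.19 and -0.036 for TXNIP, 0.38 and -0.047 for ARRDC3, and 0.68 and -0.097 for ARRDC4, in LM8 and A375M respectively. The difference between the lines was not tested, since each group held 1 array. These A375M values of TXNIP and ARRDC3 are smaller than the median SD between probe sets of 1 gene (0.071). The other TXNIP probe sets differed by more, -0.15 and -0.42, and the mean of its probe sets was -0.20. The ARRDC3 value turned to 0.0068 after repeated quantile normalization.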

How the results depend on the processing

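Txnip and Arrdc4 were the LM8 members at least 1.5-fold higher under 8 of the 9 alternatives, and 1 member was with the 2-fold threshold; 0 members were lower in LM8, and 0 passed in either direction in A375M, under all 9. Of 132 member differences under an alternative, 125 moved by less than the median SD between probe sets and 7 by more. None past 1.5-fold changed sign. Removing or raising the filter cannot move the difference of a kept gene, so part of the 125 was fixed in advance. Leaving out probe sets by their ending moves a difference only where another probe set then represents the gene. The 7 larger moves came with the mean of probe sets or with a constant added to the linear values. Txnip ranged from 0.95 to 1.20 in LM8, Arrdc4 from 0.63 to 1.00, and Arrdc1 from -0.33 to 0.0056. TXNIP in A375M ranged from -0.20 to -0.020, with no value when probe sets ending in _x_at or _s_at were left out.

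The counts of all kept genes moved more. With the 2-fold threshold 18 were higher and 37 lower in LM8, and 11 and 6 in A375M. Without the filter 212 were higher in LM8. With the 70th percentile 68 were higher and 80 lower in LM8, and 20 higher in A375M. With the mean of probe sets 71 were higher in LM8, and 32 higher and 23 lower in A375M. With 32 added 67 were higher and 90 lower in LM8, and 15 and 23 in A375M. Members with opposite signs in the lines numbered 5 after quantile normalization, 6 after the loess step and 5 with the mean of probe sets. Members with the same sign numbered 2, 2 and 1 with the loess step, the mean of probe sets and without the marked probe sets. Fewer genes are tested under a filter or without marked probe sets, and the cause of the other changes was not tested. No paired analysis was possible because the labels give no replicate numbers and each group held 1 array. Signal near the array median limits the dim Txnip probe set.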
